A study of Mus musculus with 25 samples.

Results

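The immediate-early genes are the first genes that cells transcribe after a growth factor, hormone or stress signal, and no new protein has to be made for them to be switched on. They are read out through transcription factors such as SRF with its ETS partners and CREB, which wait at their promoters and are activated by kinases. Their mRNAs are short-lived, so that their levels follow recent signaling, and in the pituitary they are known to follow hypothalamic hormones. The 10 genes described here are *Fos*, *Fosb*, *Jun* and *Junb*, which encode subunits of the AP-1 transcription factor, *Atf3*, which encodes a stress-induced factor of the ATF/CREB family, *Egr1* and *Nr4a1*, which encode a zinc-finger factor and an orphan nuclear receptor, *Dusp1* and *Btg2*, whose products act in feedback on MAP kinases and on proliferation, and *Ier2*, a small nuclear protein of the class. They were chosen by symbol from values of these same data, namely their differences between the mice and groups described here, so that their levels, fold changes and correlations are given as descriptions. Counts of the 10 that pass the main call are printed beside the share of all genes that pass it. Counts at an unadjusted p, by other tools, within or between the sexes or in altered fits are in part given without it. None of these counts is evidence about the 10. All 10 were present among the 15315 genes of the long-term table and among the 14007 genes of the short-term table, and all 10 passed the filter on low values in both.

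Bulk RNA-seq was measured on whole pituitaries of sh*Rb* mice, a model that forms pituitary tumors on knock-down of *Rb1*. Every mouse carried a reverse tetracycline transactivator at the broadly active *Rosa26* locus and an sh*Rb* cassette linked to GFP at *Col1a1*, from a single embryonic stem cell clone, and every mouse had received doxycycline (dox), which switches the shRNA on. There was no group that never received dox. In the long-term experiment, poly(A)-selected libraries came from 3 females after 6 weeks on dox (6w+dox), from 2 females and 2 males after 12 weeks on dox (12w+dox), and from 3 females and 2 males with 6 weeks on dox and then 6 weeks off dox (12w-res). In the short-term experiment, libraries depleted of ribosomal RNA came from 3 males after 16 weeks on dox (16w +dox), and from mice that were then taken off dox for 1 day (1d -dox, 4 females), 3 days (3d -dox, 3 males) or 5 days (5d -dox, 3 females). Time off dox and sex therefore cannot be told apart in the 1d and 5d comparisons with 16w +dox, while 3d -dox is matched to it by sex. Levels are FPM, fragments scaled by the library's size factor, and the libraries held 19066053 to 28968476 reads on genes in the long-term experiment and 9573101 to 13036900 in the short-term experiment. FPM is not on the same scale in the 2 experiments, so that levels cannot be compared between them. In the short-term one, lines without a gene name held 68.8% to 75.0% of each library, and FPM on genes are lower. The least covered value of a member was 13 reads, for *Fosb* at 16w +dox.

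*Rb1*, the targeted gene, lay between 1.86 and 5.09 FPM in the 6w+dox mice, between 2.42 and 4.05 FPM in the 12w+dox mice and between 16.1 and 20.3 FPM in 12w-res. In the short-term experiment *Rb1* stayed between 3.47 and 6.03 FPM in all 13 mice, while GFP was at 1025 to 1360 FPM in the 16w +dox mice and at 9.34 to 15.2 FPM in the 5d -dox mice. *Pomc*, the hormone precursor of melanotrophs and corticotrophs, took 12.9% to 43.2% of the reads on genes in the long-term libraries and 4.96% to 17.9% in the short-term ones, and none of the melanotroph, endothelial and macrophage markers checked was at 0 in a long-term mouse. *Xist* was above 1 FPM in the mice labelled female and not in those labelled male, in 12 of 12 long-term mice. In bulk tissue, fewer cells of a type and less RNA per cell cannot be told apart.

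The promoters of the genes are shown first because CREB and SRF are the factors best known for the class. For 8 of the 10 genes, all but *Egr1* and *Ier2*, the 250 bases before the RefSeq start (GRCm38.p6) were searched for the CREB half-site TGACG on either strand, for the full CREB site TGACGTCA, which contains the half-site on both strands, for the CArG box of SRF, and for TATAAA on the gene's strand. A half-site was found in 7 of the 8 promoters and in 17.8% of all 32851 promoters of the table. The exception was *Jun*. The full site was found in *Dusp1* and *Btg2*, 2 of 8, and in 1.55% of all promoters. TATAAA was found in *Fos* alone, and in 7.59% of all promoters. A CArG box was found in none of the 8 windows and in 1.47% of all promoters, and no match says only that these letters are not in this window. The promoters of the genes that the results turn on lie at chr12:85473640-85473889 (*Fos*, plus strand), chr8:84978749-84978998 (*Junb*, minus strand), chr15:101266596-101266845 (*Nr4a1*, plus strand), chr17:26508473-26508722 (*Dusp1*, minus strand) and chr4:95052223-95052472 (*Jun*, minus strand). They are written 5′ to 3′ along the gene, with every match in capitals.
Fos: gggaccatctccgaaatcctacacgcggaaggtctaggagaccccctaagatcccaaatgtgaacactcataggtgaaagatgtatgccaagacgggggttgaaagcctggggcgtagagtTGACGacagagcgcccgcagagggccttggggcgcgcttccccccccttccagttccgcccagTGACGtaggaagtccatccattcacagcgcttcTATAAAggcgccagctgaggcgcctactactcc
Junb: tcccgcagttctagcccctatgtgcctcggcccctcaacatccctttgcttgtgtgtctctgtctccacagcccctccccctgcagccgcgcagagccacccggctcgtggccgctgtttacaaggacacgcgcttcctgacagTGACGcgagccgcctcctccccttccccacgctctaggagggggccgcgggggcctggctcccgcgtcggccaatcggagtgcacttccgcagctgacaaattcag
Nr4a1: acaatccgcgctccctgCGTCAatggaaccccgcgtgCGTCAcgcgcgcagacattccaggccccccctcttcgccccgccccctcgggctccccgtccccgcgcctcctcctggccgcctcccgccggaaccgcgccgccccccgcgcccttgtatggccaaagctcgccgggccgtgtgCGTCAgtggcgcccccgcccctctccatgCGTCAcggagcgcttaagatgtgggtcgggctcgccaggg
Dusp1: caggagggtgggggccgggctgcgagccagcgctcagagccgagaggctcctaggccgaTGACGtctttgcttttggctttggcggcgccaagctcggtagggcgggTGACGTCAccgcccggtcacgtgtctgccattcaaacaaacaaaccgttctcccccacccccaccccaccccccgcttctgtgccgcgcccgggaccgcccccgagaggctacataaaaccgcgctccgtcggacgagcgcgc
Jun: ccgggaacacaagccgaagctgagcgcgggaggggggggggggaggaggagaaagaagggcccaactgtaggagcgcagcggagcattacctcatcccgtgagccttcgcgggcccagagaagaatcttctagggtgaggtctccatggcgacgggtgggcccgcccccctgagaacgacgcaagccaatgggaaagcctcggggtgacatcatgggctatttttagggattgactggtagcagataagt
The 2 half-sites of *Fos* begin 129 and 66 bases before the start, and that of *Junb* 106 bases before it. *Nr4a1* had 4 half-sites, the nearest 40 bases before the start, and the full site of *Dusp1* begins 143 bases before the start.

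The AP-1 subunit genes *Fos*, *Fosb* and *Junb* had the same mouse highest at 6w+dox and the females above the males at 12w+dox in the long-term experiment. *Fos*, the partner that dimerizes with JUN proteins, was at 206, 41.7 and 49.3 FPM in the 3 mice at 6w+dox. At 12w+dox it was at 79.9 and 108 FPM in the 2 females and at 13.9 and 9.33 FPM in the 2 males. In 12w-res the 5 mice lay between 37.6 and 45.0 FPM. Thus 1 mouse stood far above the others at 6w+dox, the 12w+dox group was split by sex into a high and a low pair, and the 12w-res mice were nearly alike, inside the gap between those pairs. *Junb* had the same high mouse at 6w+dox and the same high and low pairs at 12w+dox, with 1002, 100.5 and 136 FPM at 6w+dox, 199 and 193 in the females and 39.0 and 28.0 in the males at 12w+dox, and 87.8, 53.1, 51.9, 46.2 and 42.8 in 12w-res. *Fosb*, the least abundant of the 10 per length of transcript in every group, was at 24.5, 19.6 and 10.5 FPM at 6w+dox, at 10.7 in both females and 3.20 and 2.74 in the males at 12w+dox, and at 3.19 to 7.96 in 12w-res. The 12w-res mice were below every 6w+dox mouse for *Junb* and *Fosb*, but for *Fos* the ranges overlapped.

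*Jun* did not follow. It was at 27.1, 21.7 and 20.04 FPM at 6w+dox, at 25.8 and 26.0 in the females and 45.8 and 21.3 in the males at 12w+dox, and at 27.6, 23.1, 30.9, 37.4 and 37.4 in 12w-res. Its highest value at 12w+dox was in male replicate 3, where *Fos*, *Junb* and *Egr1* were low, and the female pair lay between the males. *Atf3* was between the patterns, with 42.0, 15.4 and 7.08 FPM at 6w+dox, 13.8 and 33.3 in the females and 17.4 and 3.32 in the males at 12w+dox, and 5.81 to 17.3 in 12w-res. Male replicate 3 was above a female in both *Jun* and *Atf3*, so that the sexes overlapped for both genes.

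*Egr1*, a target of the ERK and SRF pathway, had the widest range. It was at 1214, 186 and 267 FPM at 6w+dox, at 461 and 374 in the 12w+dox females, and at 32.2 and 22.1 in the 12w+dox males, a ratio of 20.9 between the highest and the lowest mouse on the same treatment. In 12w-res it was at 86.6 and 36.0 FPM in the males and at 39.4, 25.9 and 28.3 in the females. All 5 of these mice were below every 6w+dox mouse and below both 12w+dox females, 3 of the 5 were above both 12w+dox males, and replicate 1 stood apart at the top. *Nr4a1*, which is induced by cAMP in endocrine cells, was at 980, 333 and 244 FPM at 6w+dox, at 330 and 285 in the females and 36.1 and 28.3 in the males at 12w+dox, and at 125 to 186 in 12w-res. As for *Fos*, the 12w-res mice filled the gap between the 2 sexes of 12w+dox, but here their 2 males were the lowest of the 5.

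Of the feedback genes, *Dusp1*, a phosphatase that inactivates MAP kinases, was at 406, 55.8 and 59.1 FPM at 6w+dox, at 149 and 178 in the females and 38.6 and 29.5 in the males at 12w+dox, and at 50.1 to 62.8 in 12w-res. *Btg2*, an antiproliferative gene and a p53 target, was at 415, 110 and 125 FPM at 6w+dox, at 262 and 259 in the females and 130 and 131 in the males at 12w+dox, and at 88.4 to 128 in 12w-res. *Btg2* was thus the only 1 of the 10 for which all 5 12w-res mice were below all 4 12w+dox mice, and its male pair was no lower than the 2 lower 6w+dox mice. *Ier2* was at 203, 61.6 and 55.0 FPM at 6w+dox, at 52.0 and 67.0 in the females and 28.7 and 19.9 in the males at 12w+dox, and at 26.2 to 41.2 in 12w-res. Its high 6w+dox value came from replicate 1, the mouse that was highest of its group for all 10 genes.

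**Figure D1:**
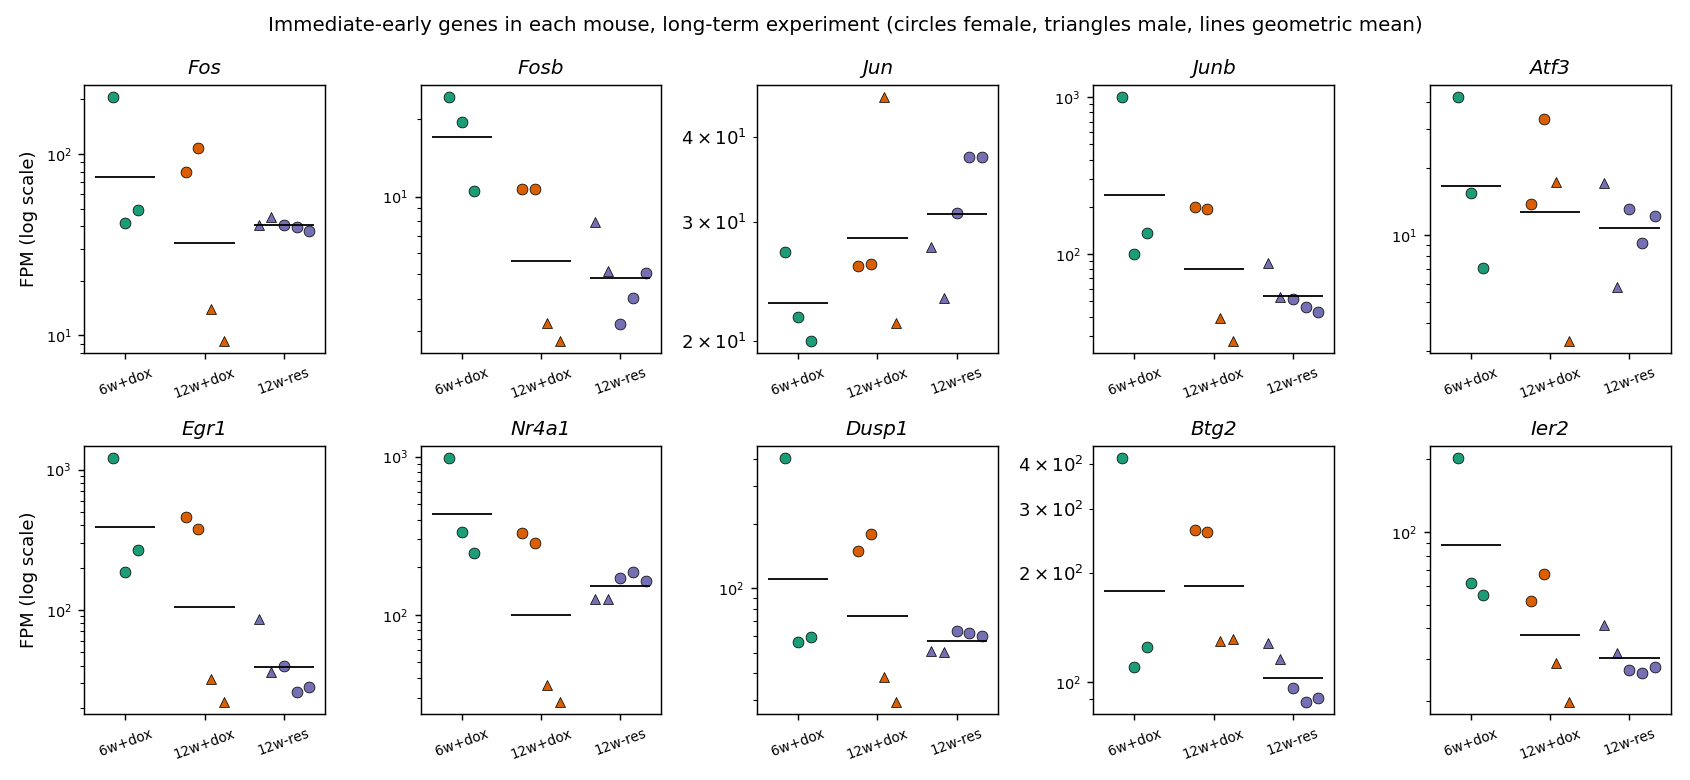
FPM of the 10 immediate-early genes in each of the 12 long-term mice, on a log scale, by group (circles female, triangles male, horizontal lines geometric means). At 6w+dox replicate 1 is the highest mouse for all 10 genes, and at 12w+dox the 2 females lie above the 2 males for 8 of the 10, all but *Jun* and *Atf3*.

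Compared as groups, 12w+dox had lower levels than 6w+dox for most of the genes, with a median log2 fold change of -1.20 over the 10, against -0.01 over all genes. The estimates on log2(FPM + 0.5) were -2.11 ± 0.74 (SE) for *Nr4a1*, -1.88 ± 0.95 for *Egr1*, -1.56 ± 0.76 for *Junb*, -1.50 ± 0.45 for *Fosb*, -1.22 ± 0.43 for *Ier2* and -1.18 ± 0.71 for *Fos*. The other 4 were between -0.57 (*Dusp1*) and 0.32 (*Jun*). Only *Fosb* passed the call used here, a limma p below 0.05 after Benjamini-Hochberg adjustment with a change of more than 1 log2 unit: 1 of 10, beside 7.2% of all genes, and nothing is read from the counts of members called, since the genes were selected from such values. Without 6w+dox replicate 1 the median was -0.50 and no member was called, beside 374 genes called higher and 584 lower. Within females the median was 0.13, again with no member called. In females *Fosb* was at -0.66 ± 0.33, *Ier2* at -0.58 ± 0.42 and *Nr4a1* at -0.49 ± 0.41, and *Dusp1* and *Btg2* were at 0.56 and 0.54. No males were sampled at 6w+dox. Markers of other cell types differed between the same groups: 6 anterior lobe hormone genes summed to 58624 to 94019 FPM at 6w+dox against 1214 to 12977 FPM at 12w+dox (4 of 6 called lower), and 4 neural lobe markers to 37.9 to 120 FPM against 2.94 to 5.55 FPM (4 of 4 called lower). Their part in the result was not tested.

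The 12w-res group was lower than 6w+dox by a median of 1.22 on the log2 scale (median log2 fold change -1.22, all genes -0.02). *Egr1* differed by -3.31 ± 0.90, *Junb* by -2.13 ± 0.72, *Fosb* by -1.72 ± 0.43 and *Ier2* by -1.53 ± 0.41, and these 4 of 10 were called, beside 11.6% of all genes. For 5 of the 10, these 4 and *Nr4a1* (-1.49 ± 0.71), all 12w-res mice were below all 6w+dox mice, as for 15.9% of all genes. *Dusp1*, *Btg2*, *Fos* and *Atf3* had estimates between -0.95 and -0.60, and *Jun* 0.43 ± 0.22. Without 6w+dox replicate 1 the median was -0.55 and 1 member was called, beside 828 genes called higher and 964 lower. In this comparison too the anterior lobe hormone genes had lower sums, 17292 to 34917 FPM in 12w-res (2 of 6 called lower), as did the neural lobe markers, 3.33 to 6.08 FPM (4 of 4 called lower), and their part was not tested. Within females, where 3 mice stood against 3, the median was -1.13 and 5 of 10 were called lower, beside 6.53% of all genes.

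Between 12w-res and 12w+dox, the contrast of tumors off and on the knock-down at the same time, the members showed no common direction. The median was -0.28 (all genes -0.004), and 0 of 10 were called with limma beside 11.3% of all genes, with 1 at an unadjusted p below 0.05, 1 by DESeq2 and 1 by edgeR. Only *Btg2* (-0.84 ± 0.34) had groups that did not overlap, as for 17.4% of all genes in the same direction. The estimates ran from -1.43 ± 0.83 for *Egr1* to 0.62 ± 0.65 for *Nr4a1*. When the libraries were scaled by their totals, the median of all genes shifted by -0.60, and *Fos*, *Jun* and *Nr4a1* turned from 0.31, 0.11 and 0.62 to -0.34, -0.54 and -0.04. Relative to that shift they were still above the median of all genes.

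The 12w+dox group of that contrast was split by sex. There, *Egr1* was higher in the females by 3.93 ± 0.67 on the log2 scale, a difference that 3 of 15315 genes exceeded. *Nr4a1* was higher by 3.24 ± 0.45, *Fos* by 2.97 ± 0.54, *Junb* by 2.55 ± 0.76 and *Dusp1* by 2.25 ± 0.67, and 4, 5, 6 and 10 genes of the table had a larger difference. For 8 of 10 genes both females were above both males, as for 12.6% of all genes, and 1 of 10, *Nr4a1*, was called, beside 0.0326% of all genes called higher in females. In 12w-res the same difference was between -0.85 (*Egr1*) and 0.47 (*Jun* and *Nr4a1*) for the 10 genes, and 0 were called with limma. At an unadjusted limma p below 0.05 there were also 0, beside 654 of the 15315 genes. With 2 females and 2 males at 12w+dox, sex cannot be told apart from anything else that those 2 pairs of mice did not share.

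Within each sex, 12w-res therefore differed from 12w+dox in opposite directions. In females 9 of 10 estimates were below 0, with a median of -1.27: *Egr1* was at -3.74 ± 0.61, *Junb* at -2.06 ± 0.69, *Btg2* at -1.50 ± 0.41 and *Fosb* at -1.31 ± 0.33. In males 8 of 10 were above 0, with a median of 0.79: *Nr4a1* was at 1.95 ± 0.45, *Fos* at 1.87 ± 0.54, *Egr1* at 1.05 ± 0.67 and *Junb* at 1.04 ± 0.76. In females 3 of 10 were called lower (*Egr1*, *Fosb*, *Btg2*), beside 4.4% of all genes, and in males 2 of 10 were called higher (*Fos*, *Nr4a1*), beside 5.39%. The difference between the sexes was -4.79 ± 0.90 for *Egr1*, -3.09 ± 0.74 for *Fos* and -2.77 ± 0.61 for *Nr4a1*. For this difference 0 of 10 were called with limma among 15315 genes, with no other tool run. At an unadjusted limma p below 0.05 there were 7 of 10 members, beside 419 of the 15315 genes.

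**Figure D2:**
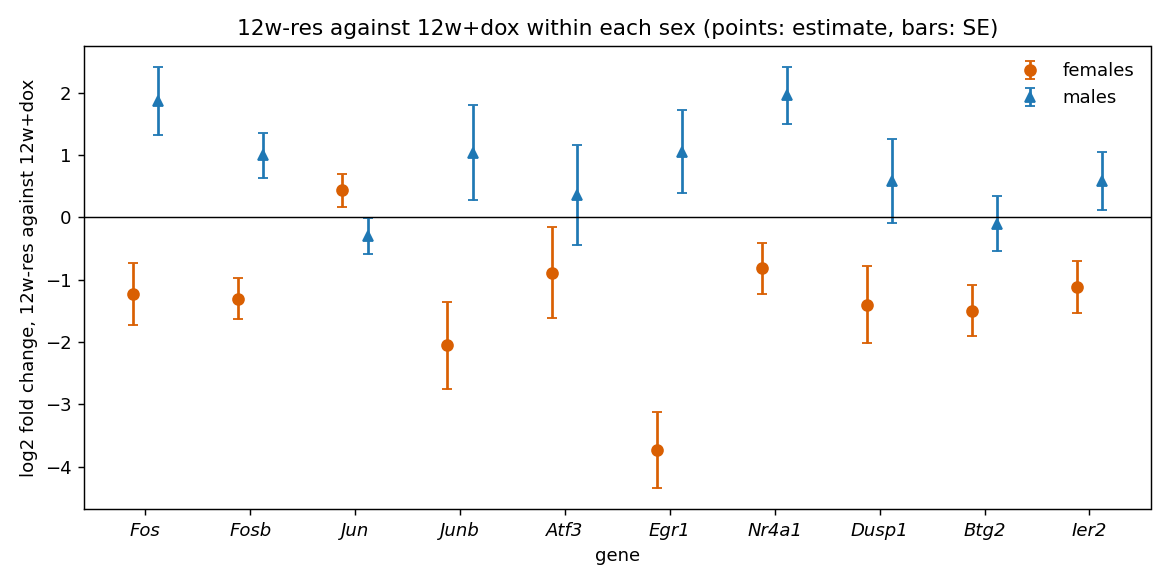
Log2 fold change of 12w-res against 12w+dox for each of the 10 genes, fitted within females (3 against 2 mice, circles) and within males (2 against 2 mice, triangles), with SE bars. Females lie below 0 for 9 genes and males above 0 for 8, and *Jun* has the opposite signs.

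How much the members varied between mice of one group was measured as the residual SD of log2(FPM + 0.5) after removal of the group means. In the long-term experiment the SD was 1.55 for *Egr1*, 1.24 for *Junb*, 1.21 for *Nr4a1*, 1.17 for *Fos*, 1.08 for *Dusp1* and 1.03 for *Atf3*, where the median gene had 0.27. At least 99.4% of all genes had a lower SD than each of these 6. *Fosb*, *Ier2* and *Btg2* had SDs of 0.70, 0.69 and 0.62, and *Jun* had 0.35, above 70.6% of all genes. In total 9 of 10 had a larger SD than 90% of genes. The SD of *Egr1* was 8.61 times what limma's trend gave for a gene of its level, and that of *Jun* 1.68 times. With the means of each sex within each group removed instead, the median SD of the members went from 1.06 to 0.64, with 8 of 10 still above 90% of genes.

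In the short-term experiment, in other mice and another library type, *Egr1* again had the largest SD, 1.09, which was 10.5 times its trend. *Fosb* (0.93), *Nr4a1* (0.92), *Fos* (0.77) and *Dusp1* (0.72) came next, and *Btg2* was lowest at 0.38, where the median gene had 0.17. Here all 10 exceeded 90% of genes, *Jun* (0.56) among them. *Btg2* was in both experiments among the 2 members that varied least.

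The deviations of the members ran in parallel. Over the 12 long-term mice, with group means removed, the median Pearson r over the 45 pairs of genes was 0.82 (Spearman 0.81), and 41 pairs were above 0. Pairs without *Jun* had r between 0.64 (*Atf3* and *Btg2*) and 0.97 (*Junb* and *Ier2*), with a median of 0.87. Pairs with *Jun* had a median of 0.01, and its closest partner was *Atf3* with 0.49. All pairs share the same 12 libraries and size factors, so these values are descriptions. The median was 0.74 without the 2 mice farthest from the others, 12w+dox replicate 4 and 6w+dox replicate 1, and 0.78 with the means of each sex within each group removed.

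Each member was then set against the mean of the other 9. *Ier2* had r = 0.96, *Junb* 0.96, *Dusp1* 0.95 and *Fos* 0.95, and for each of these 4 only 1 of the 15305 other genes was closer to that mean. *Egr1* had 0.91, *Nr4a1* 0.89 and *Btg2* 0.88, with 8, 13 and 17 genes closer. *Fosb* and *Atf3* had 0.80 each, with 77 and 72 genes closer. *Jun* had 0.05, and 6989 genes were closer.

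**Figure D3:**
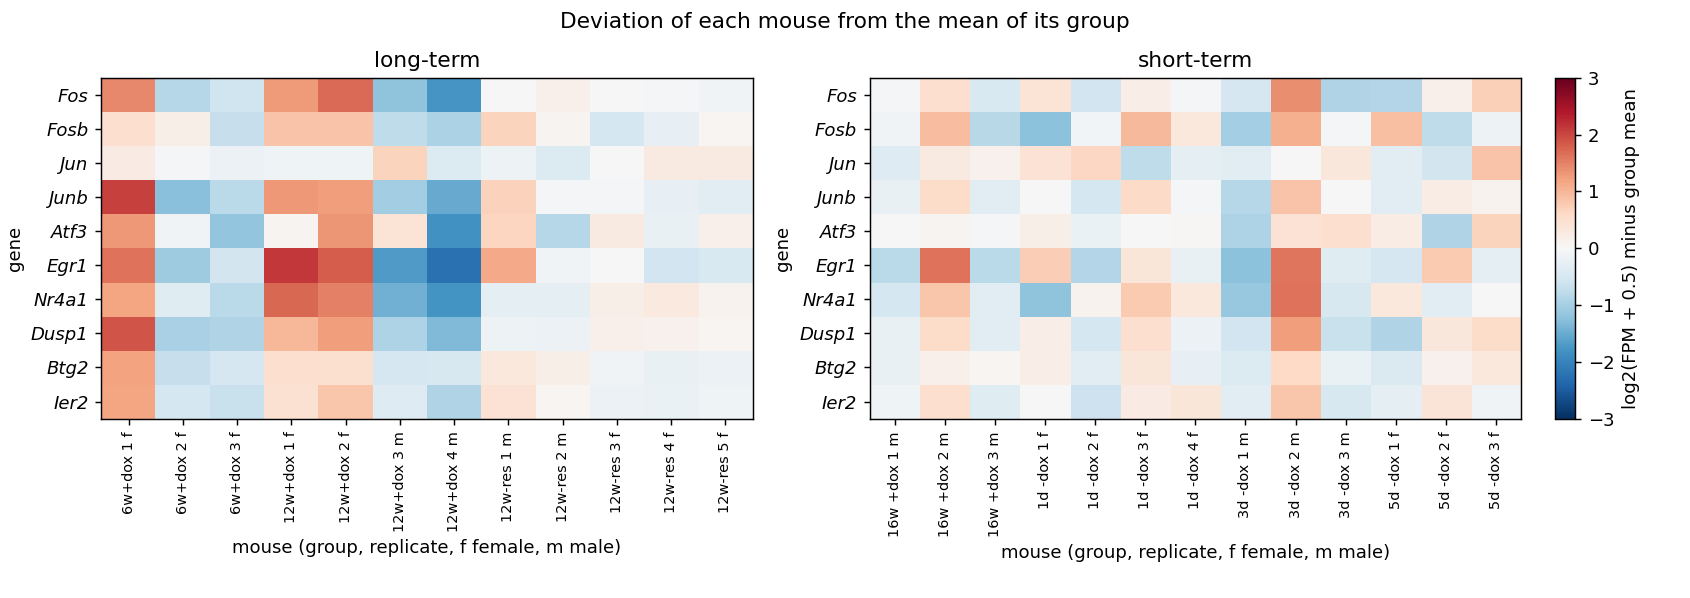
Deviation of each mouse from its group mean, in log2(FPM + 0.5), for the 10 genes in the long-term (left) and short-term (right) experiments. Columns of one color, such as 6w+dox replicate 1, the 12w+dox pairs of each sex and 3d -dox replicate 2, show mice in which most members deviated together. The row of *Jun* does not follow the 12w+dox pairs or 3d -dox replicate 2, though 6w+dox replicate 1 is highest of its group for *Jun* too.

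In the 13 short-term mice the members were less tightly coupled, with a median r of 0.49 (Spearman 0.43) and 40 of 45 pairs above 0. Without 3d -dox replicate 2 the median was 0.23. The genes fell into a tight core and looser ones: *Fos* and *Dusp1* had r = 0.97, *Dusp1* and *Btg2* 0.94, *Junb* and *Egr1* 0.89, while *Fosb* and *Nr4a1* had 0.90 with each other and only 0.25 and 0.49 with *Fos*. Against the mean of the other 9, *Junb* had 0.91, *Dusp1* 0.86, *Fos* 0.82, *Btg2* 0.81, *Egr1* 0.81, *Ier2* 0.75 and *Nr4a1* 0.71. *Fosb* (0.51) and *Atf3* (0.43) were looser, and *Jun* was at 0.0046, with 6898 of 13948 genes closer.

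**Figure D4:**
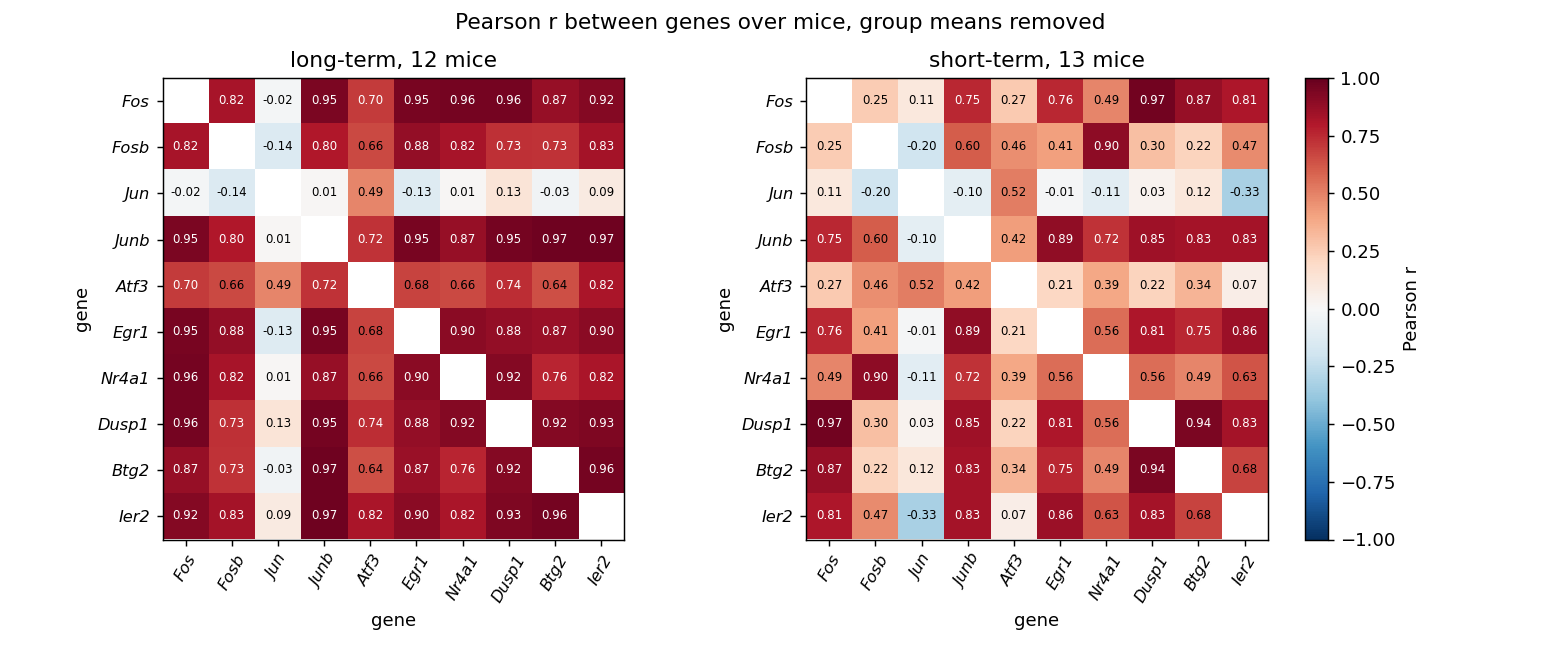
Pearson r between each pair of the 10 genes over the mice of each experiment, with group means removed. Long-term pairs without *Jun* lie between 0.64 and 0.97, short-term pairs range from -0.33 to 0.97, and the *Jun* row is pale in both except at *Atf3* (0.49 and 0.52).

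The genes outside the list whose deviations were most like the members' mean in the long-term mice were *Ephx4* (r = 0.99), *Egr4* (0.94), *Csrnp1* (0.93), *Pim3* (0.93) and *Kcnk12* (0.92), over 12 mice. In the short-term mice they were *Errfi1* (0.91), *Cfl1* (0.90), *Dusp5* (0.90), *Rnd2* (0.90) and *Mxd1* (0.88), over 13 mice. No gene was among the first 5 in both. Of 51 further immediate-early and early response genes in each table, chosen by class with results of these data known, 21 had r above 0.5 in the long-term mice, where 11.2% of all other genes did, and 21 in the short-term mice, where 6.17% did.

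In the short-term experiment, 1 mouse on dox and 1 mouse off dox stood out. At 16w +dox *Egr1* was at 12.6, 70.0 and 12.6 FPM, *Fos* at 11.5, 17.1 and 8.47, and *Nr4a1* at 14.8, 38.4 and 17.2, and replicate 2 was the highest of the 3 for all 10 genes. At 3d -dox *Egr1* was at 21.7, 159 and 40.0 FPM, *Fos* at 10.5, 40.3 and 7.86, and *Nr4a1* at 8.73, 62.5 and 14.1. There replicate 2 was the highest for 8 of 10 genes, all but *Jun* and *Atf3*, and it held the highest *Egr1*, *Nr4a1*, *Dusp1*, *Btg2* and *Ier2* of the 13 mice. For *Btg2* and *Atf3* at 16w +dox the other mice were near it, with 49.4 against 46.1 FPM and 1.47 against 1.35 FPM for the next mouse.

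At 1d -dox *Egr1* was at 119, 38.3, 91.5 and 60.4 FPM, and at 5d -dox at 49.5, 121 and 57.4. *Fos* was at 27.5, 13.7, 23.7 and 19.6 FPM at 1d and at 13.9, 28.9 and 42.5 at 5d. *Nr4a1* was at 15.1, 38.5, 61.3 and 44.4 FPM at 1d and at 50.8, 32.5 and 40.9 at 5d, so that the mouse with the most *Egr1* and *Fos* at 1d -dox had the least *Nr4a1*. *Atf3* varied little at 16w +dox, with 1.35, 1.47 and 1.30 FPM, and at 1d -dox, with 4.67, 3.51, 4.01 and 4.23 FPM, and more in the later groups, with 0.80, 2.88 and 3.01 at 3d and 3.81, 1.48 and 5.35 at 5d. Its values at 1d and at 5d did not overlap those at 16w +dox, as 1 of 10 members in each comparison, while 5.6% and 9.64% of all genes were higher without overlap. At 5d the lowest mouse was barely above the highest at 16w +dox, with 1.48 against 1.47 FPM (57 against 55 reads). The 1d and 5d mice were female and the 16w +dox mice male. Sums of 3 marker lists also did not overlap between 16w +dox and either female group. The 6 anterior lobe hormone genes summed to 197 to 233 FPM at 16w +dox, 22.9 to 105 at 1d and 25.4 to 101 at 5d, and 7 pericyte and fibroblast markers to 62.3 to 96.7, 31.6 to 49.6 and 26.3 to 48.7 FPM. The 7 endothelial markers summed to 25.4 to 43.6, 14.6 to 18.1 and 11.5 to 15.5 FPM. These 3 sums overlapped 16w +dox in the males at 3d. There, melanotroph sums (12925 to 29510 against 35595 to 38692 FPM) and heat shock (693 to 715 against 717 to 850) were lower without overlap. At 1d, heat shock sums (569 to 680) were lower and glucocorticoid sums (73.1 to 96.8 against 60.7 to 68.8) higher. At 5d, melanotroph (40874 to 58383) and stem cell sums (17.3 to 18.9 against 13.4 to 15.8) were higher. Macrophage sums there (10.5 to 14.4 against 17.2 to 19.3) were lower. The part of these lists in the result was not tested.

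**Figure D5:**
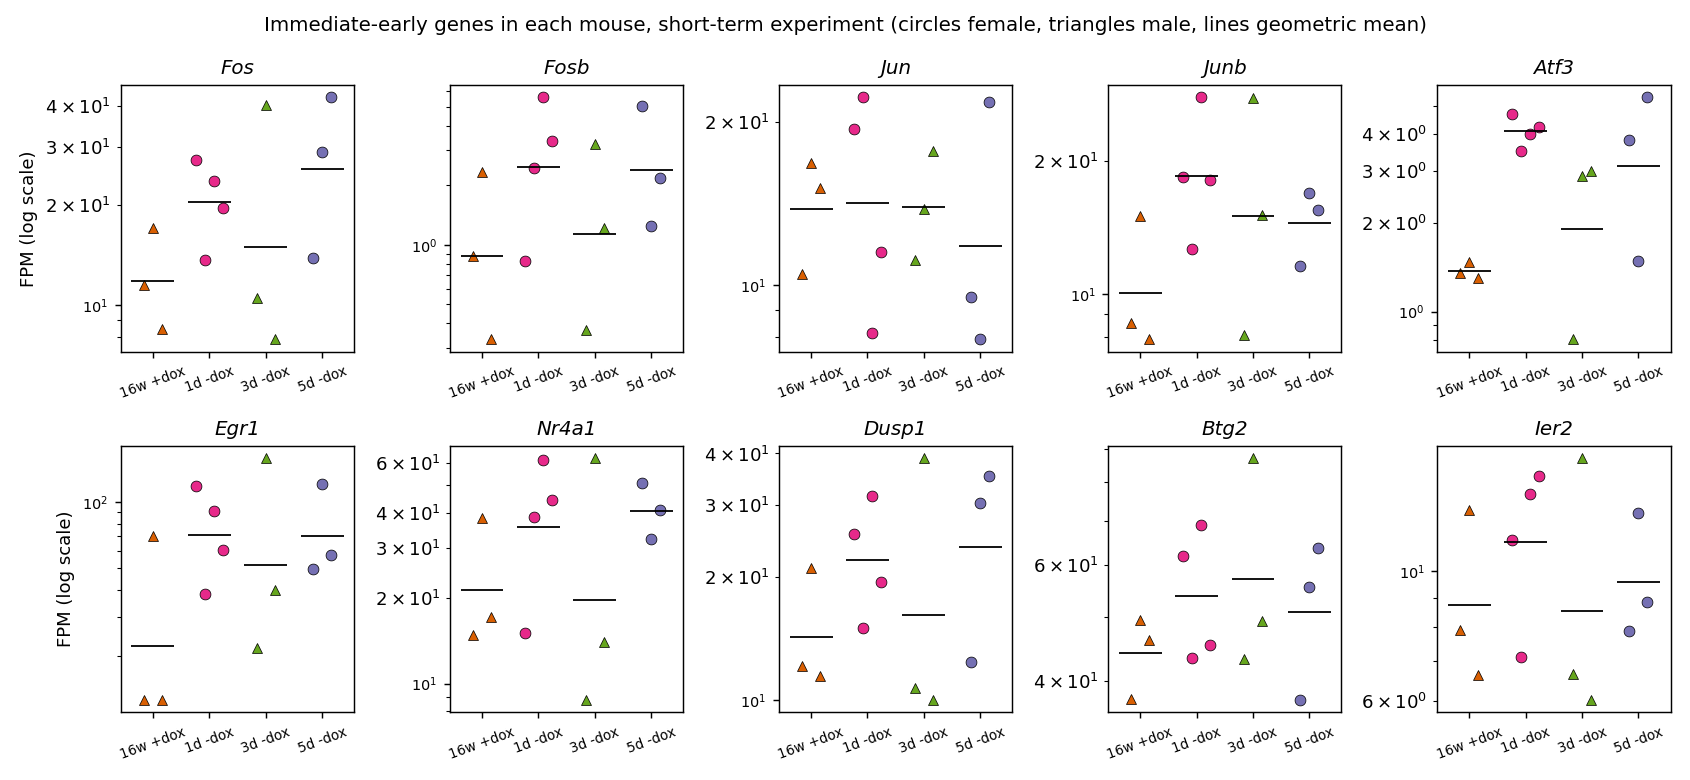
FPM of the 10 genes in each of the 13 short-term mice, on a log scale, by group (circles female, triangles male, horizontal lines geometric means). Replicate 2 is highest at 16w +dox for all 10 genes and at 3d -dox for 8, and *Atf3* at 1d -dox (3.51 to 4.67 FPM) lies above 16w +dox (1.30 to 1.47 FPM).

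As groups, the short-term comparisons called 0 of 10 members each with limma. Over the members, 1d -dox had a median log2 difference of 0.74 from 16w +dox, with all 10 estimates above 0, where 0.043% of all genes were called. At 3d -dox this median was 0.30 and 0.129% of all genes were called, and at 5d -dox it was 0.81 and 0.193% were called. At an unadjusted limma p below 0.05, with no share of all genes given, there were 3, 0 and 3 members. edgeR called 0 in each, and DESeq2 called 1 at 1d and 0 at 3d and 5d. These comparisons share their 16w +dox mice. At 1d the estimates reached 1.64 ± 0.66 for *Egr1* and 1.29 ± 0.35 for *Atf3*, and at 5d 1.62 ± 0.71 for *Egr1* and 1.09 ± 0.50 for *Fos*. At 3d, the comparison within males, *Egr1* was at 1.19 ± 0.71 and the other 9 between -0.10 and 0.56. Without 3d -dox replicate 2 that median was -0.13. Between the female groups, 5d -dox and 1d -dox, the median was -0.07, with estimates from -0.34 (*Junb*) to 0.33 (*Fos*) and 0.0143% of all genes called.

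Of 51 related genes, some were called in each long-term comparison and 0 in the short-term ones with limma. DESeq2 called 1 at 5d. At an unadjusted limma p below 0.05, 8 were higher and 3 lower at 1d, 1 and 4 at 3d, and 5 and 5 at 5d. The share of all genes at that p is not given here, so nothing is read from these counts. Between 12w+dox and 6w+dox, 2 of 51 rose and 9 fell (median -0.26), which is 21.6% called beside 7.2% of all genes. Within females 2 were called higher and 4 lower (median -0.08), with no share of all genes given. Those that rose were *Dusp4* (1.87 ± 0.34, limma adjusted p = 0.00264) and *Dusp5* (1.41 ± 0.25, adjusted p = 0.00228), phosphatases of ERK. The largest falls were those of *Rgs2*, a regulator of G protein signaling (-1.92 ± 0.25, adjusted p = 0.000372), *Dusp2* (-1.89 ± 0.34, adjusted p = 0.00236), *Cebpd* (-1.33 ± 0.40, adjusted p = 0.0288), *Nfil3* (-1.29 ± 0.33, adjusted p = 0.0150) and *Klf2* (-1.25 ± 0.23, adjusted p = 0.00252). Between 12w-res and 12w+dox, 5 rose and 3 fell (median 0.01), which is 15.7% called beside 11.3% of all genes. *Zfp36l1*, which promotes mRNA decay, rose by 1.46 ± 0.29 (adjusted p = 0.00150) and *Ctgf*, a matricellular protein, by 1.29 ± 0.21 (adjusted p = 0.000368), with *Nfil3*, *Ptgs2* and *Arid5a* at 1.37, 1.10 and 1.08. *Egr3*, of the same family as *Egr1*, was at -2.36 ± 0.30 (adjusted p = 4.48e-05), with *Per1* and *Dusp4* at -1.15 and -1.01.

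*Egr3* was low in all 12w-res mice. It had a mean of 15.2 FPM at 6w+dox, 12.2 at 12w+dox (8.82 to 17.3) and 2.05 in 12w-res. Between 12w-res and 6w+dox, 3 of 51 related genes rose (*Ptgs2*, *Ctgf* and *Arid5a*, at 1.42, 1.22 and 1.08) and 8 fell (median -0.31), which is 21.6% called beside 11.6% of all genes. Besides *Egr3* (-2.70 ± 0.33, limma adjusted p = 3.36e-05), the largest falls were those of *Dusp2* (-2.13), *Arc* (-1.89), *Egr4* (-1.52) and *Rgs2* (-1.50). Of 19 genes for regulators of the class (*Srf*, its ETS partners, *Creb1*, its coactivators and the ERK and RSK kinases), *Elk4* rose at 12w+dox against 6w+dox (1.16 ± 0.32, adjusted p = 0.020). *Elk3* was higher in 12w-res than in 12w+dox (1.23 ± 0.14, adjusted p = 1.92e-05) and than in 6w+dox (1.04 ± 0.15, adjusted p = 0.000180), and *Rps6ka2* was higher in 12w-res than in 6w+dox (1.11 ± 0.14, adjusted p = 6.05e-05). The other regulators were not called in the long-term comparisons, and 0 of 17 were called in the short-term ones with limma. At an unadjusted limma p below 0.05 there were 2, 3 and 4 at 1d, 3d and 5d, again with no share of all genes given.

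Sums over marker lists moved with some of the mice that stood out. At 6w+dox, replicate 1 had 120 FPM of 4 neural lobe markers against 37.9 and 44.7 in the other 2, 3097 FPM of 9 heat shock genes against 2537 and 1630, 943 FPM of 6 glucocorticoid-responsive genes against 662 and 435, and 32.2% of its reads on *Pomc* against 19.97% and 13.6%. At 12w+dox, 5 melanotroph markers summed to 157932 and 201557 FPM in the females and 133281 and 98586 in the males. Most of that sum was *Pomc* alone, which took 19.2% and 23.0% of reads in the females and 17.1% and 12.9% in the males. The 8 macrophage markers summed to 139 and 112 FPM in the females against 106 and 104 in the males. The sums of the other lists (endothelial, pericyte and fibroblast, anterior lobe hormone, neural lobe, stem cell, heat shock, hypoxia, glucocorticoid and the 1 red blood cell gene present) overlapped between these females and males. Pericyte and fibroblast markers summed to between 592 and 745 FPM in the 12w-res mice, against 142 to 348 FPM in the 12w+dox and 180 to 263 FPM in the 6w+dox mice, and 7 of 7 rose in 12w-res against 12w+dox. In 12w-res, 4 more sums lay above 12w+dox without overlap. These were endothelial (201 to 275 against 66.7 to 135 FPM), macrophage (159 to 229 against 104 to 139), melanotroph (462270 to 583568 against 98586 to 201557) and anterior lobe hormone (17292 to 34917 against 1214 to 12977). The sums of the other lists overlapped between these 2 groups. In the short-term mice, 16w +dox replicate 2 had 43.6 FPM of 7 endothelial markers against 25.4 and 26.3, and 3d -dox replicate 2 had the lowest sum of 6 anterior lobe hormone genes of its group, 166 FPM against 501 and 873. The part of these differences in the levels of the immediate-early genes was not tested.

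By outer gene span in the GENCODE annotation, genes on the other strand overlap *Jun* (*Junos*), *Junb* (*Prdx2*), *Atf3* (*Gm24748*) and *Dusp1* (*Ergic1* and *Gm8225*). That span of *Dusp1* is chr17:26505590-26562128, and the RefSeq promoter shown above lies inside it. The RefSeq gene, the kind the paper used, is therefore shorter, and overlap of exons was not checked. The sources used here do not say whether reads were counted by strand. Where exons of a partner do overlap, its reads cannot be told apart from those of the member.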

How the data were processed

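Pituitaries of 25 mice were sequenced as paired reads, from poly(A)-enriched libraries in the long-term experiment and from libraries depleted of ribosomal RNA in the short-term experiment, so that the tables were never compared in a test. Alignment by the authors was to mm10 with STAR, and the deposited signal per gene is FPM, a fragment count scaled with DESeq2 size factors. The counting tool and its strand setting are not given in the sources used here. Of the values, 100% (183780 long-term and 182091 short-term) were whole multiples, within 0.1 of a read, of 1 read's worth, and these recovered reads served for depth and the count tests. No column of a sample was left unused (0). Lines without a gene name were left out: 4 in the short-term experiment, holding 68.8% to 75.0% of each library, and 2 blank ones in the long-term experiment.

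A gene was tested if over 50% of the mice of any 1 condition had 10 reads or more. For the main test, limma 3.58.1 (R 4.3.3) was fitted to log2(FPM + 0.5), with its trend option and all groups of a table in 1 fit, with Benjamini-Hochberg adjustment over all genes. The pseudocount understates the change of low genes, and it does not weigh the same in the 2 tables, whose FPM scales differ. Replicates are mice, which the labels list separately. edgeR 4.0.16 and DESeq2 1.42.0 on recovered reads, other pseudocounts, scalings and filters, sex as a covariate, a replicate block and each mouse left out were alternatives. Comparisons within sex, group-by-sex means and leaving out the 2 farthest mice were chosen after seeing the data. On simulated data limma recovered 200 of 200 changed genes for 12w+dox against 6w+dox (15315 genes) and 196 of 200 for 1d -dox against 16w +dox (13958 genes). The simulation gave every gene the same low variation between mice, below that of the members, and changed only well covered genes. It checked the code and does not measure the power for genes that vary like the members.

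The members and all gene lists were chosen with earlier results of these data known. Named are all members, the related genes called (up to the 5 largest changes in each direction), called regulators, the 5 genes most like the members in each table, and *Rb1* and GFP. *Egr3* levels were given in addition after its values were seen. Promoter sequences are from RefSeq, build GRCm38.p6, in which 8 of 10 members matched.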

Additional observations from a re-analysis of the deposited data

Results flagged for a closer look

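In 12w-res, replicate 1, a male, stood above the other 4 mice in 2 genes. *Junb* was at 87.8 FPM there and the next mouse was at 53.1 FPM, a gap of 0.77 of the group's range. *Egr1* was at 86.6 FPM and the next mouse at 39.4 FPM, a gap of 0.78 of the range. Both gaps exceed Dixon's critical value for 5 samples, in 2 of 30 groups of values, where chance gives about 1 in 20. The gaps were taken on FPM and not on the log2 scale of the other results, where a high value stands out less. The flags therefore hold for FPM only. Both come from the same mouse, the 2 genes had r = 0.95 over the 12 long-term mice, and the genes were chosen on such values, so they are 1 description and not separate events. Replicate 1 was the highest of its group for 6 of the 10 genes.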

How the results depend on the processing

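Of 402 alternative values of the counts, medians, correlations and spreads, 372 kept within the limits set and 30 moved. None of 1300 values of single members turned a called direction. That could occur only for members called in the main fit, 1 at 12w+dox and 4 at 12w-res, both against 6w+dox. With totals, uncalled members did change sign: *Fos*, *Jun* and *Nr4a1* at 12w-res against 12w+dox, and *Nr4a1* and *Ier2* at 3d -dox. Fits within each sex were not among the 1300. The limits were wide. A count had to stay within a set ratio of the main count, and a median within an SD between mice of a group. A correlation or spread had to stay within its jackknife SE. For the correlations this SE was 0.11 (long-term) and 0.37 (short-term), so a short-term fall from 0.49 to 0.23 counted as kept. The share kept is therefore no measure of stability. The cause of each move was not tested. Members called at 12w+dox against 6w+dox (1) were 0 with only the 2 groups fitted, with sex as a covariate and in females only, and 2 by DESeq2 and 2 by edgeR. With 1 mouse left out they were 0 to 3: 0 without 6w+dox replicate 1 or 2 or 12w+dox replicate 3 or 4, and 3 without 6w+dox replicate 3 or 12w+dox replicate 1 or 2. Related genes called there (11) were 5 with totals of recovered reads, 7 with the replicate block, 7 with sex as a covariate and 7 to 14 with 1 mouse left out. For 12w-res against 12w+dox, members called (0) were 2 with totals, 1 by DESeq2, 1 by edgeR, 3 in females only, 2 in males only and 0 to 1 with 1 mouse left out (1 without 12w+dox replicate 3), and related genes (8) were 18 with totals. For 12w-res against 6w+dox, members called (4) were 1 to 5 with 1 mouse left out, 1 without 6w+dox replicate 1. At 1d -dox 1 member was called with only the 2 groups fitted and 1 by DESeq2, and at 5d -dox DESeq2 called 1 related gene. The members' median was 0.79 in males only for 12w-res against 12w+dox (-0.72 to 0.05 with 1 mouse left out) and 0.13 in females only for 12w+dox against 6w+dox (-1.62 to -0.50). The median SD of the long-term members was 0.64 with group-by-sex means removed. The median correlation was 0.75 to 0.87 (long-term) and 0.23 to 0.69 (short-term) with 1 mouse left out.

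Scaling by totals moved the median of all genes by 0.30 (12w+dox against 6w+dox), -0.60 (12w-res against 12w+dox), -0.30 (12w-res against 6w+dox) and 0.13 (3d -dox). All genes called higher and lower went from 483 and 619 to 1058 and 317, from 955 and 772 to 244 and 3364, and from 890 and 892 to 497 and 1638. DESeq2 called 29 higher and 84 lower at 1d -dox, where limma called 1 and 5, 72 and 32 at 3d (11 and 7) and 35 and 105 at 5d (12 and 15). At 3d -dox *Nr4a1* and *Ier2* turned from -0.10 and -0.03 to 0.04 and 0.12 with totals. Same-numbered mice did not deviate together (correlations -0.17 to 0.24 over 10 long-term and -0.21 to 0.17 over 18 short-term pairs), so the numbers only name mice. With the replicate block the median correlation was 0.73 (long-term) and 0.49 (short-term).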
